A study of Bos taurus with 8 samples.

Results

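The genes described here encode the receptors that bind advanced glycation end products: AGER, the scavenger receptors MSR1, CD36, SCARB1, STAB1, STAB2 and OLR1, and the binding proteins LGALS3, DDOST and PRKCSH. They were taken by name, as every noncontrol probe on the array whose gene name or description carries one of these 10 symbols, whatever its signal. This gave 20 of 43653 noncontrol probes, and 9 of the 10 genes; no probe of STAB2 was found by this rule. DDOST had 4 probes, SCARB1 and PRKCSH had 3, AGER, MSR1, CD36 and STAB1 had 2, and LGALS3 and OLR1 had 1.

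The samples were endometrial biopsies of 8 cows. Counting the day of standing estrus as day 0, 25 mL of fluid went into either uterine horn on day 1, and tissue was taken on day 7 from the horn next to the ovary with the corpus luteum. In 4 cows the fluid contained 5 mM methylglyoxal and in 4 control cows 0 mM, so the controls had also received an intrauterine infusion. No genotype, breed or age is in the labels; each array carried Cy3-labelled cRNA made from the total RNA of 1 cow, and the question put by the design was how intrauterine methylglyoxal acts on endometrial mRNA.

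Methylglyoxal is a reactive dicarbonyl formed alongside glycolysis. It reacts with lysine and arginine residues of proteins and leaves advanced glycation end products, often shortened to AGEs. AGER, also called RAGE, is the signalling receptor for these products: it is a member of the immunoglobulin superfamily that also binds S100 proteins and HMGB1, and its engagement activates NF-kB. The scavenger receptors take up glycated and oxidised proteins and lipoproteins for breakdown in lysosomes, mainly in macrophages and endothelium, and several of them also move lipids into cells. LGALS3, DDOST and PRKCSH were described as parts of a cell surface complex that binds AGEs, while DDOST and PRKCSH are best known from the endoplasmic reticulum, where they process N-glycans.

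Every probe was a 60-base oligonucleotide. The probes of a gene are numbered here from the brightest to the dimmest mean over the 8 arrays, and probe 1 stands for the gene. The sequences that follow, as deposited with the arrays and written 5′ to 3′ in lower case, are of probes whose agreement or disagreement with another probe of the same gene is described in the results.
AGER probe 2: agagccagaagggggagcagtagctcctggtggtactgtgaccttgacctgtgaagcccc
SCARB1 probe 2: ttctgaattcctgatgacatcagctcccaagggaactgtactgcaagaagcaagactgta
SCARB1 probe 3: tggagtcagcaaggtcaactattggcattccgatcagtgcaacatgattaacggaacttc
STAB1 probe 2: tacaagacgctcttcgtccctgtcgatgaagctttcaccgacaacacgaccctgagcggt
DDOST probe 3: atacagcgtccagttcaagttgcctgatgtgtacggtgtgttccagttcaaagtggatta
DDOST probe 4: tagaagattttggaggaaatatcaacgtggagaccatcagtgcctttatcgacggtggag
PRKCSH probe 2: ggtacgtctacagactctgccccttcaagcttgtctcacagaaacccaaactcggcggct
PRKCSH probe 3: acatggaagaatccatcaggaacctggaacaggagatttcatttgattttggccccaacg

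The array files place the probes on the build HGSC Btau_3.1. AGER probe 2 lies at chr23:27030463-27030522 on the plus strand, before AGER probe 1 at chr23:27031721-27031780. SCARB1 probe 3 spans chr17:53828829-53831069, which is 2241 bases of genome for 60 bases of probe, so the probe joins separate stretches of the gene. SCARB1 probe 2 lies further along at chr17:53855662-53855721 and probe 1 at chr17:53861442-53861501. DDOST probe 4 likewise spans 9759 bases at chr2:136452650-136462408, whereas DDOST probe 3 is at chr2:136465519-136465578, probe 1 at chr2:136465893-136465952 and probe 2 at chr2:136466050-136466109. PRKCSH probes 3, 2 and 1 follow one another at chr7:14275572-14275902, chr7:14276146-14276204 and chr7:14276623-14276815. The STAB1 probes lie on the minus strand, probe 2 at chr22:49474229-49474366 and probe 1 at chr22:49473316-49473375. Exons and untranslated regions are not stated, because no annotation of this build was used here. In RefSeq's gene table for ARS-UCD2.0, AGER overlaps PBX2, STAB1 overlaps NT5DC2 and DDOST overlaps the locus LOC112443422; OLR1 lies between TMEM52B and CLEC7A, and CD36 beside LOC518526.

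Values are log2 processed signals minus the log2 75th percentile of the same array, so a level of 0 equals that percentile, which lay between 1032 and 1456 intensity units. A difference is the mean of the 5 mM group minus the mean of the 0 mM group, with its standard error (SE) and 95% confidence interval from a linear model fitted to all tested probes with limma. Between 68.3% and 73.2% of the probes were well above background on an array, and no spot was saturated. The labelled tissue was checked on marker lists, each summarised per array as the mean of its genes' deviations from their own means over the 8 arrays. The 18 measured markers of luminal and glandular epithelium stood between 0.31 and 0.86 on 7 arrays and at -3.38 on the array of 5 mM replicate 1, where all 18 were below their own mean and 14 were still well above background. On the same array 12 markers of ciliated cells stood at -2.24, against -0.49 to 0.76 on the other arrays. Only 5 of these 12 were well above background there, and 4 on all 8 arrays, so part of this mean rests on signals near background. The 13 smooth muscle markers stood at 2.36 on that array, against -1.52 to 1.48 elsewhere. Smooth muscle markers were also high on the arrays of 5 mM replicate 3, at 1.48, and 0 mM replicate 1, at 1.23. Each receptor difference is therefore given with and without 5 mM replicate 1. Fewer cells of a type and less of an mRNA per cell cannot be told apart in these biopsies.

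Of the 20 receptor probes, 16 were well above background on all 8 arrays. AGER probe 2, SCARB1 probe 2 and OLR1 each missed 1 array, in the 5 mM group. These 19 were tested; CD36 probe 2 was well above background on no array of the 0 mM group and on 1 of 4 of the 5 mM group, and was not tested.

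No receptor gene differed between cows given 5 mM and 0 mM methylglyoxal by more than the spread between cows. By probe 1, 4 genes had a higher mean in the 5 mM group (CD36, OLR1, LGALS3 and PRKCSH) and 5 a lower one (AGER, MSR1, SCARB1, STAB1 and DDOST), where 51.6% of all 13227 tested genes were higher and 48.4% lower. Over the probes, 7 were higher and 12 lower, beside 46.9% of all 31108 tested probes that were lower. With limma's moderated test and Benjamini-Hochberg adjustment over all tested probes, 0 of the 19 probes passed an adjusted p of 0.05, and 0.00% of all tested probes did; the adjusted p of the receptor probes lay between 0.913 and 0.997. At an unadjusted p under 0.05 the count was again 0 of 19, beside 595 of 31108 probes, or 1.91%. In 0 of 19 probes were the values of the groups free of overlap, beside 1.54% of all tested probes. The median difference over the 9 genes was -0.040, and over all tested genes it was 0.010. Standard errors ran from 0.20 for SCARB1 probe 3 to 0.78 for OLR1, where the median over all tested probes was 0.24. The interval of each difference shows which sizes 8 cows leave possible.

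**Figure D1:**
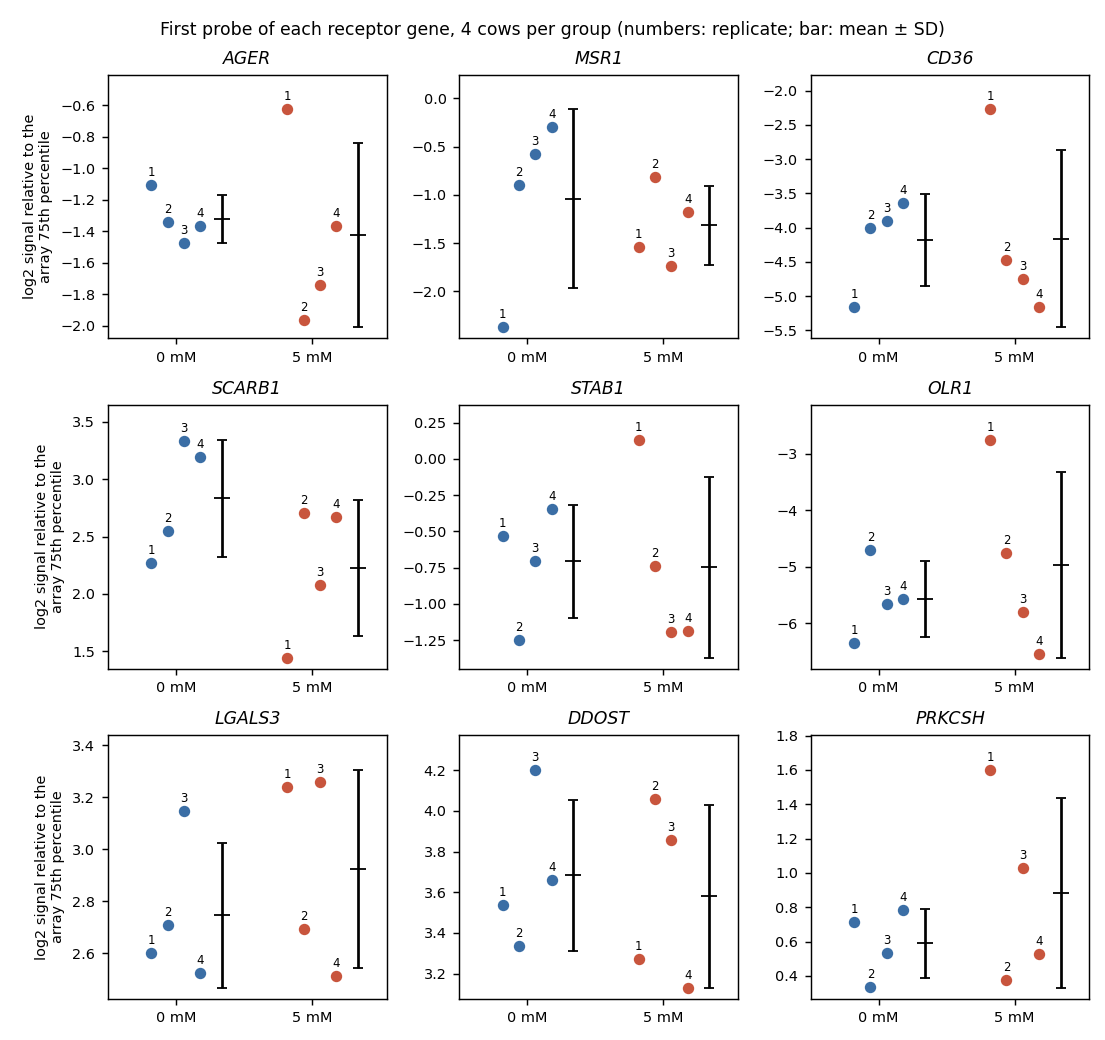
Log2 signal relative to the array's 75th percentile (vertical axis) of probe 1 of the 9 receptor genes in the 4 cows given 0 mM and the 4 given 5 mM methylglyoxal; each point is 1 cow and bars are means with SD. The groups overlap in every panel, and the widest scatter is in OLR1 and CD36, where 5 mM replicate 1 stands highest.

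AGER, the signalling receptor, was measured by 2 probes. The log2 levels of probe 1 were -1.11, -1.34, -1.47 and -1.37 in the 0 mM cows and -0.63, -1.96, -1.74 and -1.37 in the 5 mM cows, in the order of replicates 1 to 4. The 5 mM cows lay on both sides of the controls and were spread more widely. Means were -1.32 ± 0.15 (SD, n = 4) and -1.43 ± 0.59 (SD, n = 4). The difference was -0.10 (SE 0.28, 95% interval -0.76 to 0.55, unadjusted p = 0.73 in the limma fit), which in folds is 0.59 to 1.47. Without 5 mM replicate 1, the highest array, the difference was -0.37, and without 5 mM replicate 2, the lowest, it was 0.077.

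AGER probe 2 was dim. Its levels were -5.15, -5.36, -4.95 and -5.17 in the 0 mM cows and -4.61, -6.68, -5.30 and -5.11 in the 5 mM cows, and 5 mM replicate 2, the lowest value, was not well above background. As with probe 1, replicates 1 and 2 of the 5 mM group were the highest and lowest of all arrays. The difference was -0.27 (SE 0.41, unadjusted p = 0.53), and -0.54 without 5 mM replicate 1. Across the 8 arrays the probes of AGER correlated at r = 0.78 (exact permutation p = 0.035, adjusted 0.047 over 15 pairs of tested probes) and rho = 0.50 (exact permutation p = 0.22, adjusted 0.23). Without the 2 arrays farthest from the median of probe 1, r was 0.18, so that the relation rests on those arrays.

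The signalling genes known to act after AGER were described from a list of 20, which holds DIAPH1, a formin bound by the receptor's cytoplasmic tail, the kinases of the MAPK and IKK families, NF-kB subunits and NADPH oxidase subunits. Of the 19 measured, 8 were higher and 11 lower in the 5 mM group, with a median difference of -0.011, or -0.00042 without 5 mM replicate 1, and 0 passed the adjusted threshold, as for 0.00% of all genes. At an unadjusted p under 0.05 there were also 0 of 19, beside 1.98% of all tested genes. CYBA, a membrane subunit of NADPH oxidase, had the lowest p of the list, with a difference of -0.37 (SE 0.17, unadjusted p = 0.054), and -0.28 without 5 mM replicate 1. NFKBIA, the inhibitor that holds NF-kB in the cytoplasm and is itself an NF-kB target, had the difference of the greatest size, -0.57 (SE 0.45, unadjusted p = 0.24), and -0.18 without 5 mM replicate 1.

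Of NF-kB target genes reported downstream of AGER, among them cytokines, adhesion molecules and tissue factor, 1 was higher and 12 of 13 measured were lower, with a median of -0.40, beside 48.4% of all tested genes that were lower. Of the 13, 0 passed the adjusted threshold in the limma fit, beside 0.00% of all genes, and 0 an unadjusted p of 0.05, beside 1.98%. TNF, the inflammatory cytokine, differed by -0.74 (SE 0.41, unadjusted p = 0.11) and NOS2, the inducible nitric oxide synthase, by -0.87 (SE 0.55, unadjusted p = 0.15). NOS2 levels were -3.12, -2.44, -1.31 and -1.37 in the 0 mM cows and -4.16, -2.28, -3.03 and -2.25 in the 5 mM cows. The 3 lowest of these were the arrays with high smooth muscle markers, 5 mM replicate 1, 0 mM replicate 1 and 5 mM replicate 3. Without 5 mM replicate 1 the list's median was -0.30, the TNF difference -0.55 and the NOS2 difference -0.46; the part of tissue makeup in these values was not tested.

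MSR1, the class A scavenger receptor of macrophages, had a probe for each of 2 transcript variants named in the array file. Probe 1, for variant 1, lies at chr27:22940613-22940672 and read -2.37, -0.90, -0.58 and -0.30 in the 0 mM cows and -1.54, -0.81, -1.74 and -1.17 in the 5 mM cows. Both the lowest and the highest array belonged to the 0 mM group. The difference was -0.28 (SE 0.45, 95% interval -1.32 to 0.76, unadjusted p = 0.55). Without 0 mM replicate 1, the lowest array, the difference was -0.73 (unadjusted p = 0.032, adjusted p = 0.85 in the limma fit). No other setting gave this probe an unadjusted p under 0.05. Without 5 mM replicate 1 the difference was -0.20. Within slide 1, which held replicate 1 of both groups, the 5 mM cow was higher by 0.83; within slides 2 and 3 the differences were -0.076 and -1.16.

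Probe 2, for variant 2, at chr27:22902421-22902480, read -3.36, -1.71, -1.46 and -2.04 in the 0 mM cows and -2.56, -1.79, -3.47 and -2.75 in the 5 mM cows. The difference was -0.50 (SE 0.49, 95% interval -1.62 to 0.62, unadjusted p = 0.33), and -0.53 without 5 mM replicate 1. The same cows were low with both probes, 0 mM replicate 1 and 5 mM replicate 3 first of all, and the probes correlated at r = 0.86 (exact permutation p = 0.0070, adjusted 0.015) and rho = 0.79 (exact permutation p = 0.028, adjusted 0.032), with r = 0.93 without the 2 arrays farthest from the median.

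The MSR1 values can be set beside 17 measured macrophage and dendritic cell markers, CSF1R, CD68, CD163 and the C1Q chains among them. Their mean deviations were -0.65, 0.35, 0.65 and 0.67 in the 0 mM cows and -0.60, 0.21, -0.71 and 0.08 in the 5 mM cows, and 16 of the 17 had a lower mean in the 5 mM group. The 3 arrays lowest in these markers, 5 mM replicate 3, 0 mM replicate 1 and 5 mM replicate 1, were also the 3 lowest for MSR1 probe 1. These 3 arrays were also the highest in smooth muscle markers, so the match is not particular to macrophage markers. For MSR1 probe 2, 5 mM replicate 4, at -2.75, was lower than 5 mM replicate 1, at -2.56. The part of either marker list in the MSR1 values was not tested. ITGAM, ITGAX and MARCO, also on the list, were not measured above the filter.

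CD36, a class B scavenger receptor and fatty acid translocase of macrophages, microvascular endothelium, adipocytes and muscle, was dim. Probe 1, on the minus strand at chr4:41765196-41765255, read -5.16, -4.01, -3.90 and -3.64 in the 0 mM cows and -2.27, -4.48, -4.75 and -5.17 in the 5 mM cows. The other 3 cows given 5 mM lay below 3 of the 4 control cows, and only 5 mM replicate 1 was above all controls. The difference of means was 0.012 (SE 0.64, 95% interval -1.47 to 1.49, unadjusted p = 0.99), or 0.36- to 2.81-fold; without 5 mM replicate 1 it was -0.62. Probe 2, which the array file does not place on the genome, read -8.51, -7.69, -7.48 and -7.27 in the 0 mM cows and -5.47, -7.32, -8.53 and -8.17 in the 5 mM cows. Only 5 mM replicate 1, its highest value, was well above background, so no fold is given. For the same reason the agreement of the CD36 probes was not tested.

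SCARB1, a class B receptor that takes up cholesteryl esters from high density lipoprotein, showed the lowest p of the receptor genes, still above the threshold. Probe 1 read 2.27, 2.55, 3.33 and 3.19 in the 0 mM cows and 1.44, 2.70, 2.08 and 2.67 in the 5 mM cows. The 2 highest arrays were controls and the 2 lowest were 5 mM cows, with the other 4 arrays mixed between them. Group means were 2.83 ± 0.51 (SD, n = 4) and 2.23 ± 0.59 (SD, n = 4). The difference was -0.61 (SE 0.36, 95% interval -1.43 to 0.21, unadjusted p = 0.13, adjusted p = 0.91 in the limma fit), or 0.37- to 1.16-fold. It was negative within each slide, at -0.82, -0.24 and -0.82 on slides 1, 2 and 3, and between -0.80 and -0.35 when 1 cow was left out, with -0.35 without 5 mM replicate 1. The 3 arrays lowest for SCARB1 probe 1 were the 3 with the highest smooth muscle markers, whose part in this difference was not tested.

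SCARB1 probe 2 read -4.60, -3.82, -3.10 and -3.06 in the 0 mM cows and -6.68, -3.54, -3.99 and -3.76 in the 5 mM cows. The value of 5 mM replicate 1 was not well above background, and stands only for a level at or below -6.21, the lowest signal well above background on that array. The difference of -0.85 (SE 0.72, unadjusted p = 0.27) shrank to -0.12 without that cow. Probe 3, which joins separate stretches of the gene, read -5.15, -4.93, -4.49 and -4.40 in the 0 mM cows and -5.08, -4.75, -4.98 and -5.03 in the 5 mM cows, and its difference was -0.22 (SE 0.20, unadjusted p = 0.31), and -0.17 without 5 mM replicate 1. On that array probe 1 stood at -1.09 and probe 3 at -0.23 relative to their own means. Probe 1 correlated with probe 2 at r = 0.91 (exact permutation p = 0.00082, adjusted 0.0020) and with probe 3 at r = 0.82 (exact permutation p = 0.013, adjusted 0.019). Probes 2 and 3 gave r = 0.68 (exact permutation p = 0.053, adjusted 0.066) and rho = 0.90 (exact permutation p = 0.0046, adjusted 0.0098), and r = 0.93 without 5 mM replicate 1, the array where probe 2 was not well above background.

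STAB1, a large endocytic receptor of sinusoidal endothelium and of macrophages, read -0.53, -1.25, -0.70 and -0.34 in the 0 mM cows and 0.13, -0.74, -1.19 and -1.19 in the 5 mM cows by probe 1. The highest array was 5 mM replicate 1 and the lowest 0 mM replicate 2. The difference was -0.040 (SE 0.34, 95% interval -0.82 to 0.74, unadjusted p = 0.91), and -0.33 without 5 mM replicate 1. Probe 2 read -4.44, -4.92, -3.85 and -3.59 in the 0 mM cows and -4.00, -4.39, -3.99 and -4.15 in the 5 mM cows, with a difference of 0.068 (SE 0.29, unadjusted p = 0.82), and 0.025 without 5 mM replicate 1. The STAB1 probes had the lowest correlation of the 15 pairs, r = 0.45 (exact permutation p = 0.27, adjusted 0.27) and rho = 0.43 (exact permutation p = 0.30, adjusted 0.30), and r = 0.21 without the 2 arrays farthest from the median. For comparison, 13 markers of blood endothelium stood between -0.53 and 0.34 on the 8 arrays, lowest on 5 mM replicate 1, where STAB1 probe 1 was highest. The 4 measured markers of lymphatic endothelium, which also carries STAB1, had a mean deviation of 1.20 on that array. Of these, 2 lay above their own mean there and 2 below it, so the value does not stand for all 4. Only 3 of the 4 were well above background on every array. This list's mean was 1.44 for 5 mM replicate 3 and 0.87 for 0 mM replicate 1. Its values for the remaining arrays ranged from -1.21 to 0.096. STAB1 probe 1 was among its lower values on 5 mM replicate 3. The part of either list in the STAB1 values was not tested.

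OLR1, the lectin-like receptor of endothelium and macrophages for oxidised low density lipoprotein, had the widest range of the receptor genes by probe 1. Its probe, at chr5:107297092-107297151, read -6.35, -4.70, -5.65 and -5.57 in the 0 mM cows and -2.75, -4.76, -5.80 and -6.54 in the 5 mM cows. The highest and the lowest array both belonged to the 5 mM group, with 155 intensity units in 5 mM replicate 1 and 11.7 in 5 mM replicate 4, where the probe was not well above background. Taking the lowest signal well above background on that array in its place, the range was at least 3.72, or 13.2-fold; the median range over all tested probes was 1.05. The difference was 0.60 (SE 0.78, 95% interval -1.19 to 2.40, unadjusted p = 0.46), and -0.13 without 5 mM replicate 1. Like CD36, OLR1 was above all other arrays on 5 mM replicate 1 and low on the 2 other arrays with high smooth muscle markers, at -6.35 and -5.80.

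Of 13 other scavenger receptors, 11 were measured, and 3 were higher and 8 lower in the 5 mM group with a median difference of -0.40, or -0.34 without 5 mM replicate 1. At an unadjusted p under 0.05 there was 1 of the 11, beside 1.98% of all tested genes, and 0 passed the adjusted threshold, beside 0.00%. That gene was COLEC12, a collectin of the vascular endothelium with a scavenger function, at -0.96, -0.68, -0.22 and -0.91 in the 0 mM cows and -0.75, -1.33, -2.00 and -1.90 in the 5 mM cows. All 5 mM cows except replicate 1 lay below the controls. Its difference was -0.81 (SE 0.31, unadjusted p = 0.032, adjusted p = 0.91 in the limma fit), and -1.05 without 5 mM replicate 1. CD68, CD163 and MRC1 are on this list and on the macrophage list, so the counts of the lists are not independent.

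Genes of lipid uptake and lipoprotein handling, which work with CD36 and SCARB1, were higher in 5 and lower in 15 of 20, with a median of -0.17 that became 0.046 without 5 mM replicate 1. LPL frees fatty acids from lipoproteins at the vessel wall. By probe 1 it was the only 1 of the 20 at an unadjusted p under 0.05, beside 1.98% of all tested genes. LPL read 1.34, 0.68, -0.66 and 0.04 in the 0 mM cows and 1.11, 2.34, 1.27 and 1.37 in the 5 mM cows, a difference of 1.17 (SE 0.46, unadjusted p = 0.033, adjusted p = 0.91), or 1.31 without 5 mM replicate 1. A dimmer LPL probe differed by 0.87 (SE 0.44, unadjusted p = 0.081 in the limma fit). Among dimmer probes, which are outside the count, a FABP5 probe (0.70, unadjusted p = 0.041) and a LIPG probe (1.06, unadjusted p = 0.030) also fell under 0.05. The LIPG probe was near background, with a mean level of -6.51 in the 0 mM group. FABP4, a fatty acid binding protein of adipocytes and capillary endothelium, had the difference of the greatest size, 2.18 (SE 1.74, unadjusted p = 0.25), and 0.81 without 5 mM replicate 1. Its probe was well above background on 7 arrays only. FABP4 read -2.45, -5.76, -6.52 and -6.13 in the 0 mM cows and 1.07, -6.05, -1.23 and -5.93 in the 5 mM cows. It was thus high on the 3 arrays with high smooth muscle markers. Of 9 adipocyte markers 5 were measured, FABP4 among them. Their mean stood at 1.19 on 5 mM replicate 1, 0.48 on 5 mM replicate 3, 0.25 on 0 mM replicate 1 and between -0.41 and -0.29 elsewhere. Because the widely ranging FABP4 values enter this mean, it cannot be read apart from FABP4. The mean of the other measured adipocyte markers was not computed. ADIPOQ, LEP, PLIN4 and CIDEC were not measured above the filter.

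**Figure D2:**
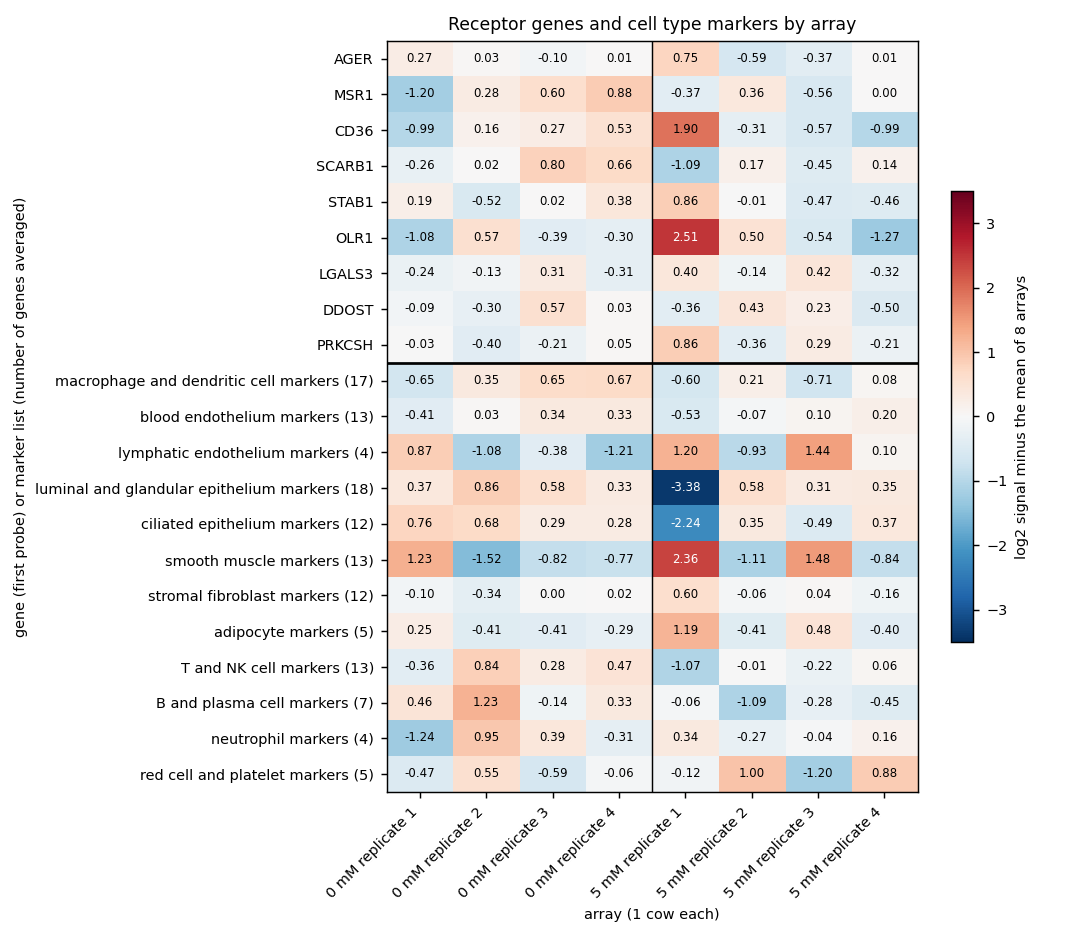
Deviation of each array from the mean of the 8 arrays (log2, colour and printed value) for probe 1 of the 9 receptor genes and for the mean of each marker list, with the number of measured markers in brackets; columns are the 4 cows of each group. CD36, OLR1 and STAB1 are highest on 5 mM replicate 1, where epithelial markers are at -3.38 and smooth muscle markers at 2.36. MSR1 is lowest on arrays low in macrophage markers, which are also the arrays high in smooth muscle markers.

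LGALS3, galectin 3, a beta-galactoside binding lectin of macrophages and epithelia, had the narrowest range of the receptor genes by probe 1. Its probe, at chr10:69420276-69420335, read 2.60, 2.71, 3.15 and 2.53 in the 0 mM cows and 3.24, 2.69, 3.26 and 2.51 in the 5 mM cows. Replicates 1 and 3 of the 5 mM group and replicate 3 of the 0 mM group stood highest, and the other cows of both groups lay close together below them. The difference was 0.18 (SE 0.23, 95% interval -0.36 to 0.71, unadjusted p = 0.46), or 0.78- to 1.64-fold, and 0.075 without 5 mM replicate 1. A list of 11 genes held the other galectins and LGALS3BP, which encodes a protein that binds galectin 3. Of these 6 were measured, 3 higher and 3 lower, LGALS3BP being one of the lower at -0.22, with a median of -0.00043, or 0.0016 without 5 mM replicate 1. LGALS1, galectin 1, led them with 0.46 (SE 0.30, unadjusted p = 0.16), and 0.20 without 5 mM replicate 1.

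DDOST, the subunit of the oligosaccharyltransferase that transfers glycans to nascent proteins and a binding protein for AGEs, was measured by 4 probes that gave much the same picture. Probe 1 read 3.54, 3.33, 4.20 and 3.66 in the 0 mM cows and 3.27, 4.06, 3.86 and 3.13 in the 5 mM cows. The highest cow was 0 mM replicate 3, and 5 mM replicates 4 and 1 were the lowest. The difference was -0.10 (SE 0.275, 95% interval -0.74 to 0.53, unadjusted p = 0.72), and -0.00091 without 5 mM replicate 1. Probes 2, 3 and 4 differed by -0.081, -0.18 and -0.22, with standard errors of 0.24, 0.30 and 0.44; without 5 mM replicate 1 the values were -0.0062, -0.0069 and 0.13.

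The DDOST probes agreed in every pair: the 6 pairs correlated at r between 0.83 and 0.97 and rho between 0.86 and 0.98, each with an exact permutation p adjusted to 0.018 or less. Probe 4 departed on 1 array. It read -2.59, -2.34, -1.65 and -2.00 in the 0 mM cows and -3.41, -1.67, -1.58 and -2.79 in the 5 mM cows, and on 5 mM replicate 1 it stood at -1.16 relative to its own mean, where probe 1 stood at -0.36. The oligosaccharyltransferase subunits other than DDOST were higher in 4 and lower in 6 of 10 measured, with a median of -0.028 that turned to 0.079 without 5 mM replicate 1. STT3B, one of the catalytic subunits, had the lowest p and the greatest size, -0.36 (SE 0.20, unadjusted p = 0.11), and -0.26 without that cow.

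PRKCSH, the beta subunit of glucosidase II and a further AGE binding protein, was higher in mean in the 5 mM group by all 3 probes, none beyond the spread between cows. Probe 1 read 0.71, 0.33, 0.53 and 0.79 in the 0 mM cows and 1.60, 0.38, 1.03 and 0.53 in the 5 mM cows. Replicates 1 and 3 of the 5 mM group were above all controls, and the other 2 lay among them. The difference was 0.29 (SE 0.28, 95% interval -0.35 to 0.93, unadjusted p = 0.32), and 0.054 without 5 mM replicate 1. Within slides it was 0.89, -0.058 and -0.0060.

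PRKCSH probe 2 read -1.44, -1.89, -1.31 and -1.09 in the 0 mM cows and -1.20, -1.59, -0.66 and -1.26 in the 5 mM cows, a difference of 0.26 (SE 0.25, unadjusted p = 0.33) that stayed at 0.26 without 5 mM replicate 1. Probe 3 read -2.71, -3.15, -2.61 and -2.33 in the 0 mM cows and -2.38, -2.88, -1.70 and -2.46 in the 5 mM cows, a difference of 0.34 (SE 0.28, unadjusted p = 0.26), or 0.35 without that cow. Probes 2 and 3 ranked the cows identically, with r = 0.99 (exact permutation p = 2.5e-05, the smallest the permutations can give, adjusted 0.00037) and rho = 1.00. Probe 1 gave r = 0.59 with probe 2 and r = 0.61 with probe 3 (exact permutation p = 0.14 and 0.12, adjusted 0.15 and 0.14), and r = 0.91 with both without 5 mM replicate 1. On that array probe 1 stood 0.86 above its own mean, and probes 2 and 3 stood 0.11 and 0.15 above theirs, so the value of PRKCSH in this cow depends on the probe. The 7 measured genes of the glucosidase II and calnexin cycle list were higher in 2 and lower in 5, with a median of -0.097, or -0.046 without 5 mM replicate 1. UGGT2, a glucosyltransferase that senses misfolded glycoproteins, had the lowest p, with 0.25 (SE 0.22, unadjusted p = 0.29), and MOGS, glucosidase I, the greatest size, with -0.33 (SE 0.29, unadjusted p = 0.29). Without that cow they differed by 0.12 and -0.063.

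**Figure D3:**
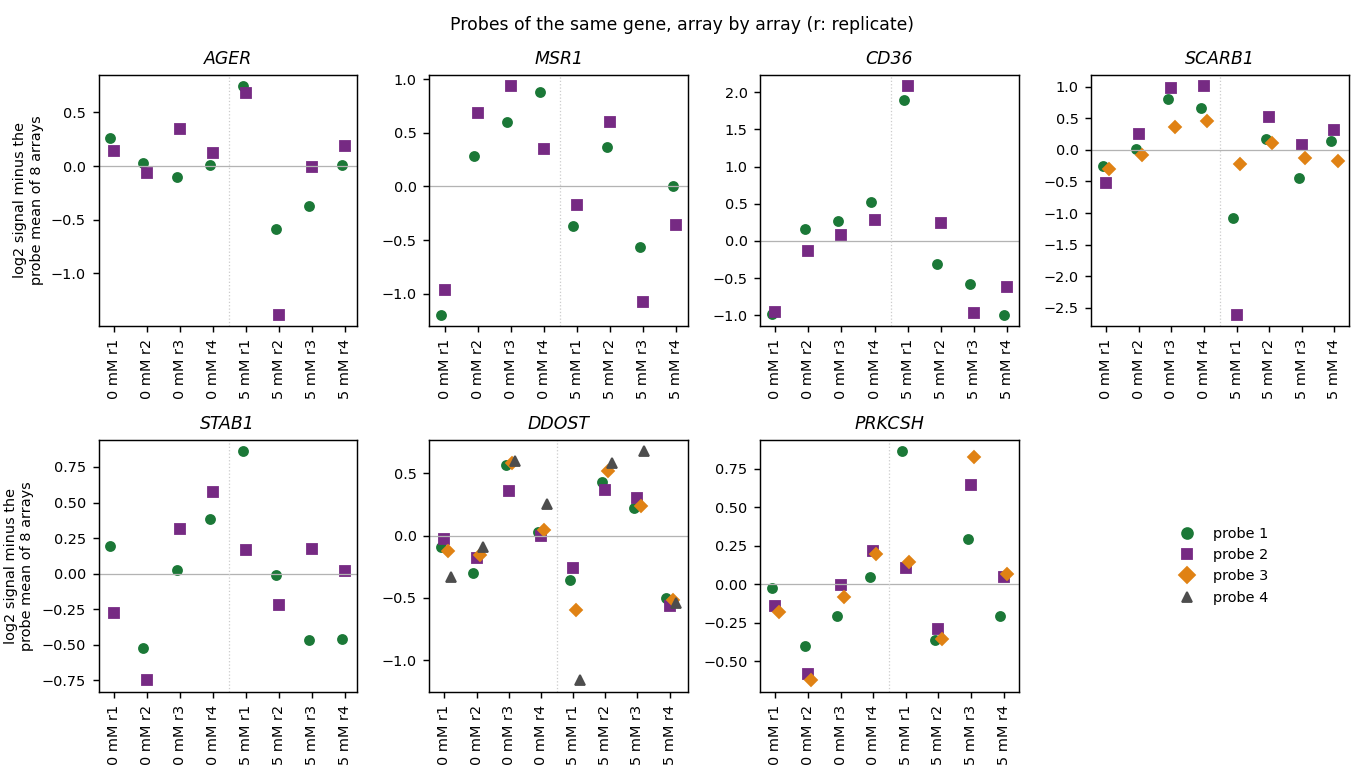
Log2 signal of each probe minus its own mean over the 8 arrays, for the 7 receptor genes with several probes; symbols mark the probe and columns the array. DDOST probes move together from array to array, whereas on 5 mM replicate 1 SCARB1 probe 2, not well above background there, is at -2.61 with probe 3 at -0.23, and PRKCSH probe 1 is at 0.86 with probe 2 at 0.11.

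Over all 15 pairs of tested probes for the same gene, r was above 0 in 15 and above 0.8 in 10. Of these, 11 pairs had an adjusted exact permutation p under 0.05 for r and 13 for rho. Pairs of a gene share probes and are not independent. No share over pairs of probes of different genes was computed. Different genes also reached high r here, such as PRKCSH with PLEKHM2 (r = 0.996), its nearest of 12530 genes. The r values alone therefore do not show that 2 probes read the same gene. AGER probe 2 and SCARB1 probe 2, which enter 3 of these pairs, were not well above background on 1 array each. A slide held 2 or 3 arrays, too few for a correlation within slides. Where 2 probes of a gene gave different signs for the group difference, as in STAB1, they were close to 0 (-0.040 and 0.068).

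**Figure D4:**
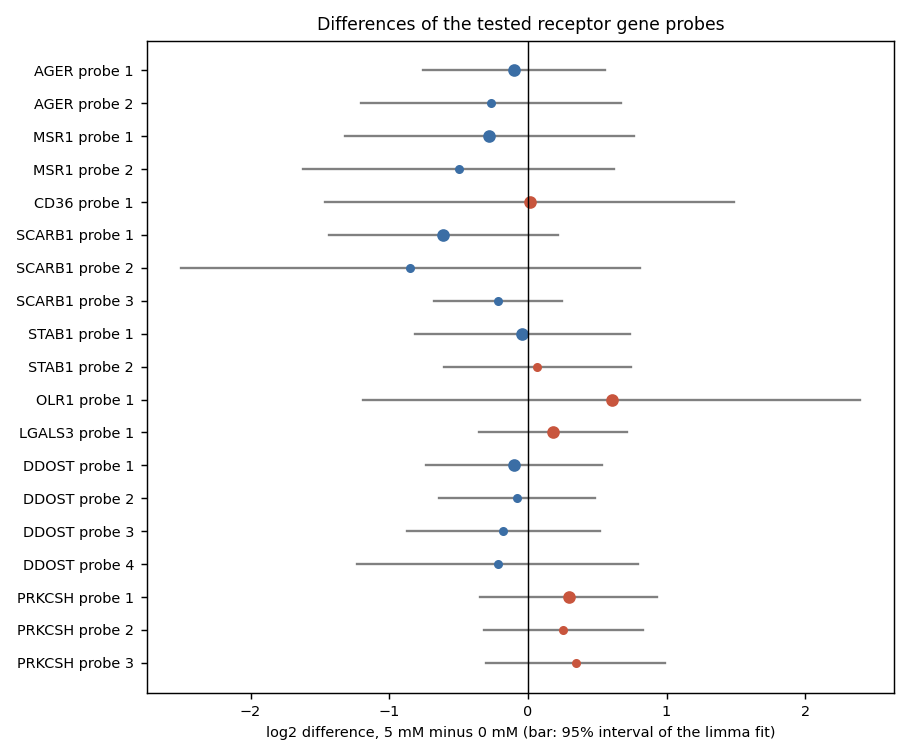
Difference in log2 signal, 5 mM minus 0 mM, with its 95% confidence interval for the 19 tested receptor probes. Every interval holds 0; the narrowest belongs to SCARB1 probe 3, with an SE of 0.20, and the widest to OLR1, with an SE of 0.78.

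**Figure D5:**
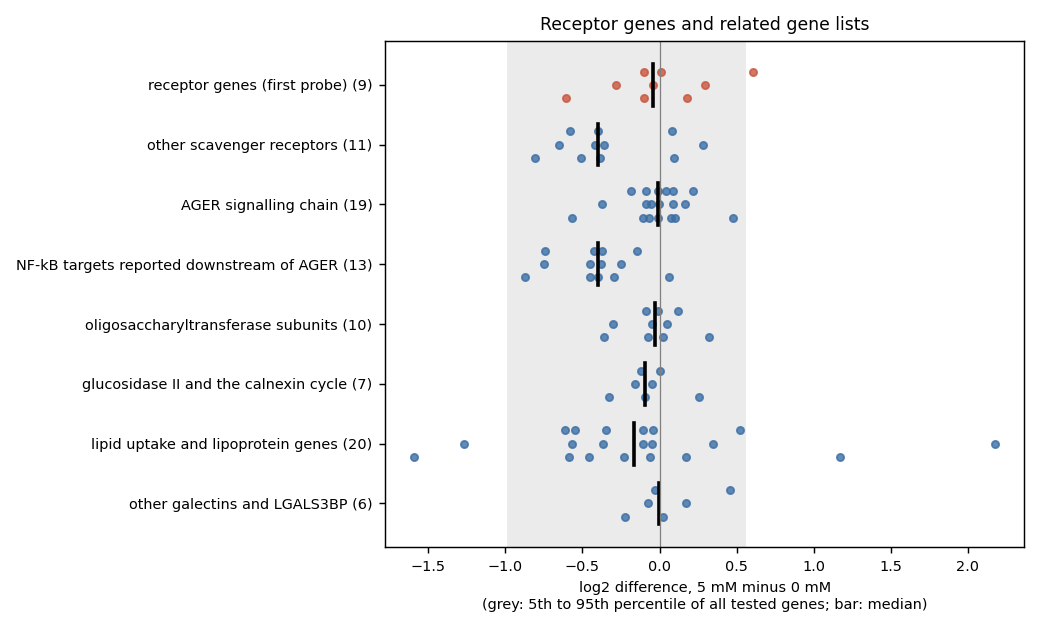
Difference in log2 level, 5 mM minus 0 mM, of each measured gene (points) in the receptor group and 7 related lists, with list medians as bars; the grey band is the 5th to 95th percentile of all tested genes, -0.98 to 0.55. The medians of other scavenger receptors and of NF-kB targets lie at -0.40, and those of the remaining lists between -0.17 and -0.00043.

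The genes whose probe 1 followed each receptor most closely over the 8 arrays were read from 12530 genes as a description; the arrays share their tissue makeup, and no test was made. AGER was followed by TMEM222 (r = 0.97), WDFY3 (r = 0.96) and ZFP1 (r = 0.95), and these values were 0.92, 0.91 and 0.87 without 5 mM replicate 1. For MSR1 they were TRPV2 (r = 0.98), MMP14 (r = 0.97) and PPP1R10 (r = 0.96), which were 0.98, 0.97 and 0.98 without that cow. CD36 was nearest to VIM (r = 0.98), the mesenchymal intermediate filament gene, VPS18 (r = 0.98) and EP400 (r = 0.95), which were 0.96, 0.98 and 0.88 without it. SCARB1 was nearest to NOS2 (r = 0.99), NUDT1 (r = 0.99) and GALNT14 (r = 0.99), the last of which was well above background on 7 arrays. STAB1 was nearest to ASB13 and KRTAP4-7 (both r = 0.98) and CAPN12 (r = 0.97), LGALS3 to SELENOI and GLCE (both r = 0.96) and HAUS5 (r = 0.91). DDOST was nearest to SLCO2A1 (r = 0.95), which was well above background on 4 arrays, MMP15 (r = 0.92) and PTPRG (r = 0.91), and PRKCSH to PLEKHM2 (r = 0.996), MPRIP and ATG101 (both r = 0.99). For the other 5 receptors the values without that cow lay between 0.90 and 0.99. No receptor gene was among the 3 nearest of another. OLR1 was left out of this search because it was not well above background on every array.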

How the data were processed

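Each of the 8 arrays is a one-colour Agilent bovine array (design 023647). The deposited scanner files give a processed intensity per spot, background-subtracted by the authors with Feature Extraction (version 11.5.1.1 per the file headers, where the submitters' processing notes name 10.5.1.1). The deposited value table holds log2 values centred by probe. It matched the log2 processed intensity minus the array's 75th percentile and minus each probe's median over the 8 arrays. The match was within 0.0044 over 43368 probes, so its scale, centring and direction are known. In replicate order, the medians of its 0 mM columns were -0.016, -0.024, 0.00088 and -0.0065, while its 5 mM columns had medians of 0.13, -0.0048, -0.011 and 0.013. The levels used here were recomputed from the scanner files relative to the 75th percentile, without centring by probe. Outlier spots were left out (461 missing values, 0 in receptor probes). Probes well above background on at least 4 of 8 arrays, 31108 in all, were fitted with limma 3.58.1 (R 4.3.3; lmFit and eBayes, no covariate), with Benjamini-Hochberg adjustment over all of them. The probe with the highest mean stood for a gene. Symbols came from the files and RefSeq's table for ARS-UCD2.0, and 35679 probes have one. The test was tried on simulated data. The simulated probes were independent of each other, so this trial does not cover probes that vary together across arrays.

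The receptors, gene lists and marker lists were chosen with earlier results of these data known. Genes were named by rule: all receptors, in each related list the gene with the lowest p and the one with the greatest difference, and for each receptor the 3 genes with the highest correlation. Alternatives were other scalings, normexp (offset 50), filters, variance and weight settings, the deposited table, blocks for slide and replicate number, within-slide values, the mean over probes, a threshold of 0.1 and the omission of single cows. The arrays came on 3 slides: the replicates numbered 1 shared slide 1, the control replicates 2 and 3 shared slide 2 with replicate 2 of the treated group, and slide 3 carried the rest. The number of arrays limits the precision.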

Additional observations from a re-analysis of the deposited data

Results flagged for a closer look

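SCARB1 probe 2 on the array of 5 mM replicate 1 stood apart within its group. Its log2 level of -6.68, which was not well above background, lay far under the other 3 cows given 5 mM methylglyoxal, which ranged from -3.99 to -3.54, and the gap made up 0.857 of the whole range of the group. It was 1 of 40 groups of 4 values examined in this way, and chance alone marks about 1 group in 20.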

How the results depend on the processing

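Under 19 settings each, 0 tested probes and 0 receptor genes passed the adjusted threshold; the smallest adjusted p over all settings was 0.67 for a receptor and 0.098 for any probe. Of the receptor differences under other settings 357 kept their sign and 45 turned; SCARB1 probes 1 and 2 and PRKCSH probe 2 never turned. Within slides (values of 1 or 2 cows a group, no test) the turned values were, on slide 1, AGER 0.48, AGER probe 2 0.54, MSR1 0.83, MSR1 probe 2 0.80, SCARB1 probe 3 0.067 and STAB1 0.67; on slide 2, CD36 -0.52, STAB1 0.24, STAB1 probe 2 -0.0047, LGALS3 -0.24, DDOST probes 1 to 4 0.29, 0.27, 0.31 and 0.33, PRKCSH -0.058 and PRKCSH probe 3 -0.0019; on slide 3, CD36 -1.31, STAB1 probe 2 -0.48, OLR1 -0.60 and PRKCSH -0.0060. Array weights gave CD36 -0.67, OLR1 -0.11 and STAB1 probe 2 -0.065. The slide block gave STAB1 probe 2 -0.055, normexp gave AGER probe 2 0.079 and SCARB1 probe 3 0.0061, the median shift gave STAB1 0.016 and the mean over probes gave STAB1 0.014. Leaving out 1 cow gave, lowest to highest, AGER -0.37 to 0.077, AGER probe 2 -0.54 to 0.15, CD36 -0.62 to 0.35, STAB1 -0.33 to 0.11, STAB1 probe 2 -0.17 to 0.27, OLR1 -0.13 to 1.13, DDOST -0.26 to 0.070, DDOST probe 2 -0.22 to 0.094 and DDOST probe 4 -0.48 to 0.13. In the other receptor probes no cow turned the sign. The cause of these turns was not tested.

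The replicate numbers were not taken as pairing the cows, which are different animals. Same-numbered deviations correlated at 0.40, 0.36, -0.30 and 0.31 for numbers 1 to 4. Numbers 1, 2 and 4 matched best with themselves in both directions, and number 3 in neither. Cows of numbers 1, 2 and 4 also shared a slide with their namesake, and those of number 3 did not. For numbers 1, 2 and 4, replicate number and slide therefore cannot be told apart. The 0 mM replicate 3 matched best with 5 mM replicate 2, which was on the same slide. The 5 mM replicate 3 matched best with 0 mM replicate 1, which was on another slide. The cause of these matches was not tested. With the replicate number as a block 0 probes and 0 receptor genes passed, the smallest adjusted p was 0.79, and SCARB1 had -0.61 (unadjusted p = 0.066). No depth is defined for arrays; signal limits CD36 probe 2, which was not well above background on 7 of 8 arrays.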

Other observations

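A few probes carry names that could be mistaken for a receptor. Of 2 probes called RAGE in the array files, both on chromosome 21 and neither from AGER, 1 belongs by its accession to MOK, a protein kinase; MOK read 0.11, -0.15, -1.07 and -0.83 in the 0 mM cows and -1.85, -1.32, -1.01 and -0.61 in the 5 mM cows, a difference of -0.71 (SE 0.35, unadjusted p = 0.075, adjusted p = 0.91 in the limma fit). The other RAGE probe was well above background on 0 of 8 arrays. Both probes of LOC518526, a gene beside CD36 that the files describe as like it, were also well above background on 0 arrays. A probe with an Ensembl transcript name and a description as CD36 antigen, outside the naming rule, was well above background on all 8 arrays; its difference was -0.029 (SE 0.47), and its highest value, -4.02, was on 5 mM replicate 1, the array where both CD36 probes were highest.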
